A study of Mus musculus with 1111 samples.

Results

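The genes followed here are 9 members of the complement system: the C1q chains C1qa, C1qb and C1qc, the central component C3, the anaphylatoxin receptors C3ar1, C5ar1 and C5ar2, and the integrin chains Itgam and Itgb2. They were chosen by name, and all 9 were found among the 35583 genes of the count tables. Single microglia had been sorted from the brains of mice aged 3 months, 20 hours after an injection of plasma proteins labelled with NHS-Atto647N, a fluorescent dye that attaches to amines. Each cell was made into its own Smart-seq2 library, a full-length method that counts reads and carries no molecular identifiers. Cells of all 3 groups came from injected mice, and strain, sex and genotype are not given in the sources used here. The groups were plasma none, plasma low and plasma high, named for the plasma signal of the sorted cell.

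Complement is a cascade of plasma and tissue proteins that tags targets for removal. C1q, built from A, B and C chains, recognises antibody complexes, dying cells and synapses and starts the classical pathway. The cascade then cleaves C3, whose fragments coat the target and are bound on phagocytes by complement receptor 3, the pair of CD11b (Itgam) and CD18 (Itgb2). In the brain, microglia are the main source of C1q and carry complement receptor 3, and both have been linked to the removal of synapses.

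Of 1111 labelled cells, 1045 were matched to a column, and the other 66 were not analysed here. The 987 cells that held 50000 or more gene reads and 500 or more detected genes were used: 35.1% of them belonged to plasma none, 35.6% to plasma low and 29.4% (290 cells) to plasma high. Each label also carries a TH number from 1 to 3, whose meaning is not stated, and the cells of a group were summed within each TH number, which gave 9 sums of 21309816 to 49323522 reads. No label names an animal, so each group counts as 1 sample, no test was run and no p-value is given. The SD stands for the spread over the 3 TH numbers (n = 3), which may be technical. Levels are in CPM, a gene's reads scaled to the TMM-adjusted total of its sum, which corrects for depth. Every ratio between groups is a log2 ratio of CPM + 1 taken within a TH number, and is written as high/none, low/none or high/low for the plasma groups it compares.

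Several measures ran along with the groups. Plasma none filled plate columns 1 to 8, plasma low columns 9 to 16 and plasma high columns 17 to 23, so the plasma group and the plate position cannot be told apart. Median reads per cell went from 207429 (plasma none) over 229931 (plasma low) to 267143 (plasma high), and the median mitochondrial share from 0.603% over 0.794% to 0.970%. A median cell had 1708 detected genes (plasma none), 1994 (plasma low) or 1943 (plasma high). The part of depth, detected genes and the mitochondrial share in the differences between groups was not tested. Values with every cell thinned to 50000 reads are given for some results. Microglia defining markers (8 of 8 genes with reads) summed to 45387 to 54371 CPM in the 9 sums. Markers of neutrophils (6 genes) and mast cells (3 genes), which also carry complement receptors, were at 0 in all 9 sums. Monocyte markers reached at most 8.42 CPM, all of it from Ccr2, with Ly6c2, Plac8 and Chil3 at 0. Those of border-associated macrophages reached at most 22.2 CPM, with Cd163, Lyve1, Pf4 and Ms4a7 at 0. Markers of neurons reached at most 55.3 CPM, of oligodendrocytes 48.9 CPM and of endothelial cells 26.1 CPM. Immediate early and dissociation genes averaged 404.9 CPM (plasma none), 359.4 (plasma low) and 328.2 (plasma high). Their sums overlapped (320.9 to 482.3 in plasma none, 284.1 to 384.3 in plasma high), and their part in the differences was not tested.

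The C1q genes were among the most abundant transcripts of these cells, and they lie side by side on mouse chromosome 4 (mm10), all on the minus strand. C1qb (ENSMUSG00000036905) spans 136880129 to 136886187, C1qc (ENSMUSG00000036896) spans 136889804 to 136893065 and C1qa (ENSMUSG00000036887) spans 136895917 to 136898803. The promoter sequences of C1qb and C1qc are shown because, of the C1q chains, these varied together most closely from cell to cell. C1qa has no entry in the RefSeq promoter table. The 250 bases before the RefSeq start (GRCm38.p6, minus strand, 5′ to 3′) run over chr4:136886201-136886450 for C1qb and chr4:136892915-136893164 for C1qc. Capitals mark matches to motifs searched on both strands.
C1qb: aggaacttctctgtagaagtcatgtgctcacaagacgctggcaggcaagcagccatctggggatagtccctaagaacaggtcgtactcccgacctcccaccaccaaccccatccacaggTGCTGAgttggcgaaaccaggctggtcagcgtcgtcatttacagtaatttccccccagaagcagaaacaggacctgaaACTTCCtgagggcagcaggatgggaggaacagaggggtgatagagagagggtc
C1qc: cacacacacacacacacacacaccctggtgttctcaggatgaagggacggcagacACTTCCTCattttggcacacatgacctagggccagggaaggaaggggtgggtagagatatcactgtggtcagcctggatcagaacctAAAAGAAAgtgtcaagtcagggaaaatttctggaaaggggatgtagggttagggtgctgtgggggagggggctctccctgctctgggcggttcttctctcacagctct

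The motifs searched were a PU.1 core (GAGGAAGT) and its shorter form (GGAAGT), a MAF motif (TGCTGA), AP-1 (TGACTCA), C/EBP (TTGCGCAA), IRF (AANNGAAA) and a TATA box (TATAAA). PU.1 and MAF factors are lineage regulators of macrophages. The C1qc window held the PU.1 core in its distal part, on the opposite strand, and the shorter form lies inside that match. The core occurs in 3.20% of the 32851 promoters of 300 bases in the RefSeq table, and the shorter form in 23.8%. The C1qb window held the shorter form at 53 to 48 bases before the start, on the opposite strand, and farther upstream a MAF motif, held by 19.5% of promoters. The IRF match of C1qc, nearer to the start than its PU.1 core, belongs to a motif found in 23.9% of promoters. The gene model of C1qc in the count tables begins upstream of the RefSeq start, so the IRF match lies inside that model and the PU.1 core before it. A match is a description of the letters and not a binding site.

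Per kilobase of exon, which allows genes to be compared, C1qb averaged 5781 CPM over the 9 sums, C1qa 2806 and C1qc 2159. These levels ranked 5, 12 and 16 among all genes. The next member was Itgb2 at 185.4 CPM per kilobase, followed by C5ar2 at 169.9, C5ar1 at 103.03, Itgam at 98.98 and C3ar1 at 95.8. The last 3 of these were not separated, since their ranges over the 9 sums were 67.1 to 170.5, 64.6 to 120.2 and 75.1 to 110.3 CPM per kilobase. Nor were Itgb2 (147.2 to 212.1) and C5ar2 (108.5 to 227.8), and the range of C5ar1 reached into both. In plasma none C5ar2 was above Itgb2 in every TH number. C3, at 0.545, ranked 12825. Together the C1q chains took 1.15% to 1.45% of the scaled reads of each sum.

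**Figure D1:**
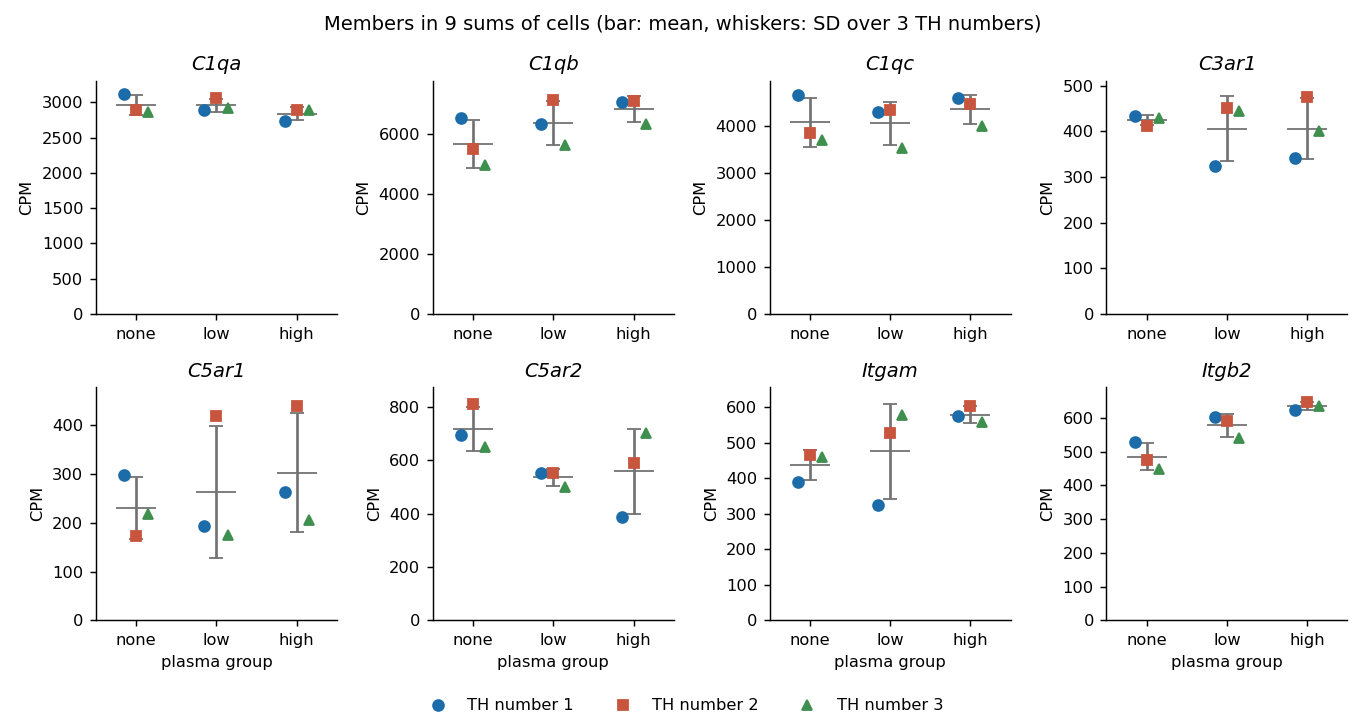
CPM (linear axis from 0) of the 8 members past the level filter in plasma none, low and high; points are the sums of TH numbers 1, 2 and 3, bars the mean and whiskers the SD over them. Itgb2 stood at 449 to 529 CPM in plasma none and 624 to 647 CPM in plasma high, whereas C1qa stayed between 2733 and 3124 CPM throughout.

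C1qb, the B chain, was the C1q gene with the largest difference between plasma high and plasma none. It stood at 6545, 5511 and 4963 CPM in TH numbers 1, 2 and 3 of plasma none (5673 ± 804, SD, n = 3). In plasma low the values were 6329, 7122 and 5648 CPM (6366 ± 738), and in plasma high 7057, 7115 and 6318 CPM (6830 ± 444). Every plasma high sum was above the plasma none sum of its own TH number, although the groups overlapped because TH number 1 of plasma none was high. The high/none ratio was 0.11, 0.37 and 0.35 on the log2 scale, a mean of 0.28 ± 0.14 or 1.21-fold, and 0.35 with thinned cells. For low/none it was 0.17 ± 0.21, no larger than the spread over TH numbers, and for high/low it was 0.11 ± 0.09, with 0.00 in TH number 2.

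C1qa, the A chain, did not differ between plasma high and plasma none by more than the spread over TH numbers. Plasma none gave 3124, 2894 and 2864 CPM, plasma low 2889, 3053 and 2923 CPM and plasma high 2733, 2893 and 2888 CPM, so that the groups overlapped. Its log2 ratios were -0.06 ± 0.11 (high/none) and 0.00 ± 0.10 (low/none). For high/low the log2 ratio was -0.06 ± 0.04 and below 0 in every TH number, but this became 0.02 when each cell was given the same weight and also when each cell was thinned.

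C1qc, the C chain, stood between the other chains in CPM. Plasma none gave 4673, 3860 and 3717 CPM, plasma low 4297, 4351 and 3538 CPM and plasma high 4602, 4469 and 4015 CPM. All 3 groups overlapped. On the log2 scale high/none was 0.10 ± 0.12, low/none -0.01 ± 0.16 and high/low 0.11 ± 0.07. Only for high/low did the 3 TH numbers agree in sign. With equal weight per cell high/none was 0.16, and with thinned cells 0.13, and C1qc was then called.

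Summed over the chains, C1q averaged 12717 ± 1453 CPM for plasma none, 13384 ± 1214 CPM for plasma low and 14030 ± 701 CPM for plasma high. High/none gave log2 ratios of 0.01, 0.24 and 0.20 in TH numbers 1, 2 and 3 (0.15 ± 0.12), low/none 0.08 ± 0.16 and high/low 0.07 ± 0.07. In TH number 1 the summed level of plasma high (14392 CPM) was thus almost that of plasma none (14342 CPM). With thinned cells the mean log2 ratios were 0.21 (high/none), 0.10 (low/none) and 0.11 (high/low).

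**Figure D2:**
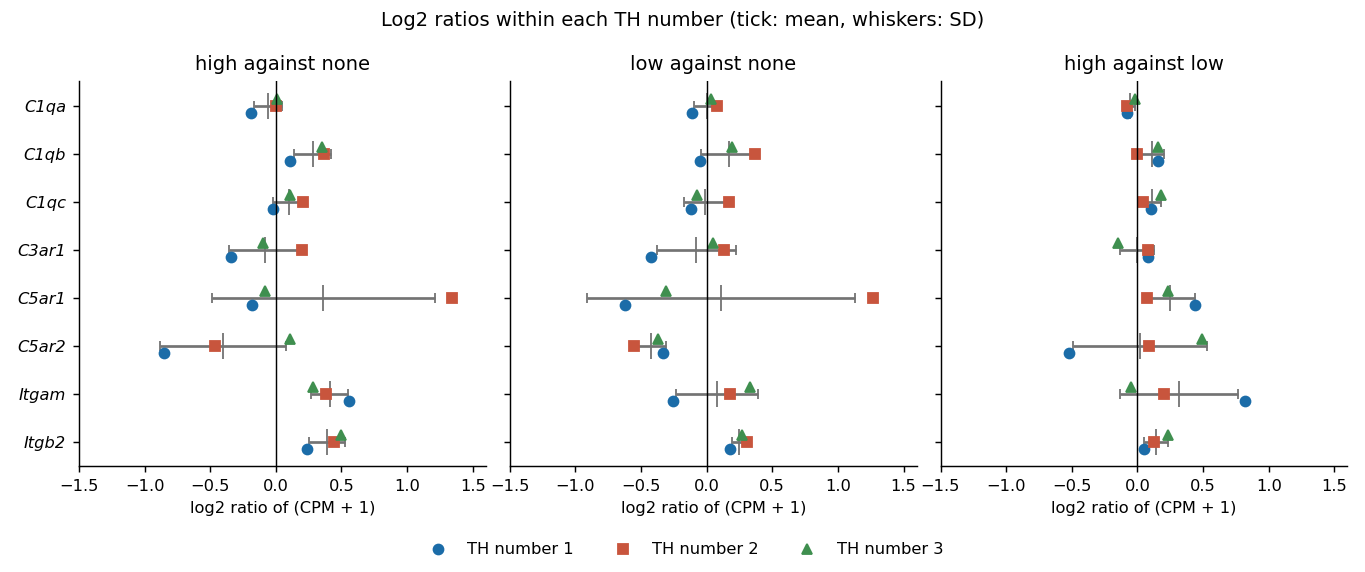
Log2 ratios of CPM + 1 for 8 members in the 3 comparisons; points are TH numbers 1, 2 and 3, ticks the mean and whiskers the SD. In the high/none panel C1qb, Itgam and Itgb2 lie above 0 in all 3 TH numbers, while C5ar1 has 1 point at 1.34 and the others at -0.18 and -0.08.

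For the balance of C1qb and C1qa, the high/none difference varied less over TH numbers than it did for either gene. Within the sums of plasma none C1qb exceeded C1qa by log2 ratios of 1.07, 0.93 and 0.79, within those of plasma low by 1.13, 1.22 and 0.95, and within those of plasma high by 1.13 to 1.37. The 3 plasma high values were all above the 3 of plasma none. The difference of plasma high from plasma none was 0.30, 0.37 and 0.34 (0.34 ± 0.03), and that of plasma low from plasma none 0.17 ± 0.12. This ratio was picked after its values were seen, so it is a description of these sums. It does not depend on the scaling of the sums to each other, and the difference of plasma high from plasma none was 0.33 ± 0.07 with equal weight per cell and 0.32 ± 0.06 with thinned cells.

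C1qc divided the difference between the other chains. From plasma none to plasma high the log2 ratio of C1qb to C1qc differed by 0.17 ± 0.06, and that of C1qc to C1qa by 0.16 ± 0.06. Per kilobase of exon, C1qb made 49.4% to 52.6% of the C1q level in plasma none and 54.5% to 56.4% in plasma high. C1qa made 26.3% to 29.8% in plasma none and 22.9% to 26.04% in plasma high. The share of C1qc stayed between 18.6% and 21.2% in all 9 sums.

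**Figure D3:**
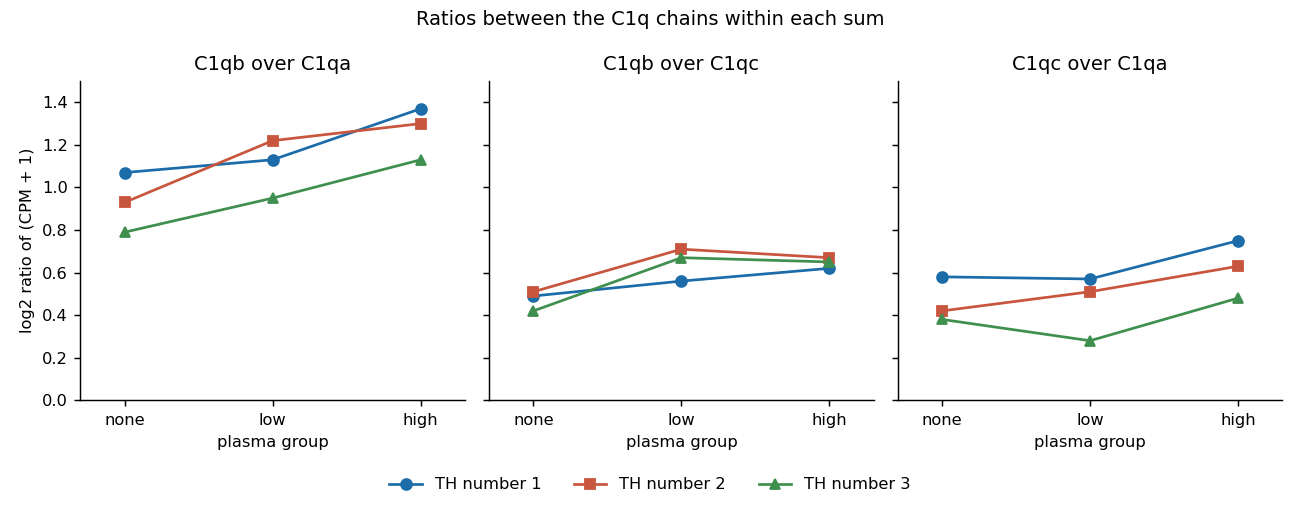
Log2 ratio of CPM + 1 between pairs of C1q chains within each sum, by plasma group; lines join the sums of a TH number and do not mark the same cells. The ratio of C1qb to C1qa runs from 0.79 to 1.07 in plasma none and from 1.13 to 1.37 in plasma high.

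C1q was detected in every cell. Reads of C1qa, C1qb and C1qc were found in all 987 cells, and still in all of them after thinning to 50000 reads. The summed C1q level per cell had a lowest, median and highest value of 4195, 12088 and 32982 CPM in plasma none. In plasma low these were 4098, 13009 and 42044 CPM, and in plasma high 135.9, 13459 and 36774 CPM. The cell at the 90th percentile held 2.35 times the level of the cell at the 10th in plasma none, 2.10 times in plasma low and 2.18 times in plasma high. The medians by TH number were 13279, 11433 and 11248 CPM in plasma none and 14035, 13642 and 13131 CPM in plasma high. Plasma low, at 13537, 13530 and 12692 CPM, overlapped both.

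**Figure D4:**
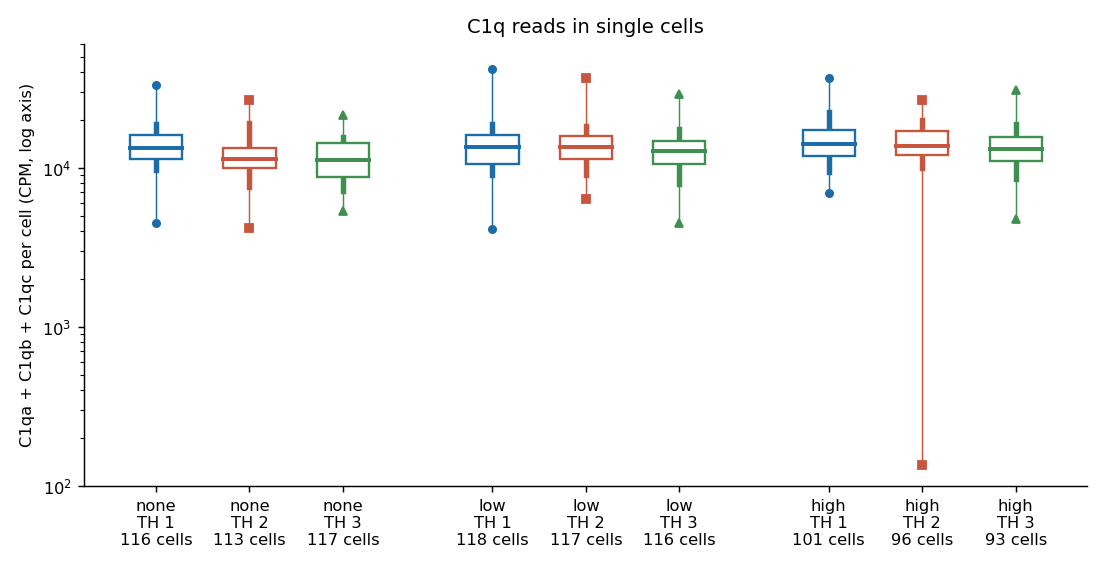
Summed CPM of C1qa, C1qb and C1qc per cell (log axis) in the 9 sets of cells; boxes span the quartiles with the median, thick bars the 10th to 90th percentile and thin lines the lowest to highest cell. The lowest cell is at 4098 CPM or more in 8 sets, and plasma high TH number 2 reaches down to 135.9 CPM.

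In 2 cells, both plasma high of TH number 2, C1q was far below that of the other 985, whose lowest value was 4098 CPM. The first held 142.3 CPM of C1q (2 reads of C1qa, 14 of C1qb and 7 of C1qc), yet its microglia markers summed to 42268 CPM, near the median of 49146 CPM of the other 985 cells. Its leading genes were Cst3, Malat1 and Ctss, and it had 720 reads of Itgam, 1 of Itgb2 and none of C3ar1, C5ar1 and C5ar2. The second held 135.9 CPM of C1q, only 3964 CPM of microglia markers, and no read of any of the 5 receptor and integrin members. Its leading gene was Ttr, the transthyretin of the choroid plexus, at 109440 CPM, followed by Enpp2 at 21316 CPM. Ttr had reads in only 1 of the other 985 cells, at 64.3 CPM. Mitochondrial reads made 4.74% and 7.11% of these cells. Leaving out both, an alternative added after seeing the data, gave the same high/none difference in the log2 ratio of C1qb to C1qa, 0.34 ± 0.03.

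The C1q chains varied together from cell to cell, more than with any other member. Over the 985 cells, with each cell taken as its deviation from the mean of its group and TH number, Pearson's r of log2(CPM + 1) was 0.378 for C1qa with C1qb, 0.321 for C1qa with C1qc and 0.441 for C1qb with C1qc. With the 2 cells of low C1q included, these were 0.498, 0.457 and 0.560 over 987 cells. The other 25 pairs of members, C3 left out, ranged from -0.063 to 0.106 over the 985 cells, weak values that in sparse counts are no finding. Points share their libraries and their depth, and these r are descriptions across cells. Over the 987 cells, summed C1q had an r of 0.013 with the log2 reads of a cell. It was -0.073 with the log2 number of detected genes and -0.108 with the mitochondrial share.

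Likeness to C1q across cells was led by Cst3. Among 674 genes with reads in at least 50% of cells, the highest r over 987 cells was that of Cst3 (0.522), which encodes the protease inhibitor cystatin C. Others near the top were Itm2b (0.391) and R74862 (0.352), the last with a mean of only 91.2 CPM, against a 95th percentile of 0.144. R74862 overlaps Cd81, and the use of strand in counting is not given in the sources used here, so the reads of such neighbours may not be told apart. Without the 2 cells of low C1q, Ctss (0.409) followed Cst3 (0.529), ahead of Itm2b (0.305) and R74862 (0.285). Over the 987 cells the lowest were Bmp2k (-0.154), Il10ra (-0.136), the receptor chain for interleukin-10, and Mertk (-0.117), a receptor for dying cells. Without the 2 cells of low C1q these were Il10ra (-0.199), Bmp2k (-0.193) and Mertk (-0.184).

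C3, the component cleaved downstream of C1q, was almost undetected. The gene (ENSMUSG00000024164) lies on chromosome 17 from 57203970 to 57228136, minus strand. No cell of plasma none had a read. A floor of 3 counts then allows up to 0.867% of cells with a read, and the exact binomial 95% interval reaches 1.06%, which limits cells with a read and not cells expressing C3. Reads were found in 1 cell of plasma low (0.285%, exact binomial 95% interval 0.00721% to 1.58%) and 1 of plasma high (0.345%, 0.00873% to 1.91%). Intervals cover counting error only. The cell of plasma low, in TH number 3, held 1126 CPM, and that of plasma high, in TH number 1, held 409 CPM. Both cells had reads of 8 of 8 microglia markers and of 0 of 4 astrocyte markers. No difference between groups was detectable, and no ratio is given for C3.

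Itgb2, the beta chain of complement receptor 3, was the member whose sums were apart in all 3 comparisons. The gene (ENSMUSG00000000290) lies on chromosome 10 from 77530252 to 77565708, plus strand. Plasma none gave 529, 477 and 449 CPM (485 ± 40.7), plasma low 602, 592 and 540 CPM (578 ± 33.1) and plasma high 624, 647 and 634 CPM (635 ± 11.8). All sums of plasma low were above those of plasma none, and all of plasma high above those of plasma low. In log2 terms high/none was 0.24, 0.44 and 0.50 (0.39 ± 0.14, 1.31-fold) and low/none 0.25 ± 0.06. High/low was smaller, at 0.14 ± 0.09, with 0.05 in TH number 1 and 0.23 in TH number 3.

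Itgam, the alpha chain of the same receptor, was also higher in the plasma high sums. The gene (ENSMUSG00000030786) lies on chromosome 7 from 128062640 to 128118491, plus strand. Plasma none gave 389, 465 and 460 CPM (438 ± 42.2), plasma low 324.4, 526 and 577 CPM (476 ± 133.6) and plasma high 575, 604 and 557 CPM (578 ± 23.8). The plasma high sums lay above those of plasma none, whereas plasma low spread across both. Its high/none log2 ratio was 0.56, 0.38 and 0.28 (0.41 ± 0.14, 1.32-fold), and 0.25 with each cell thinned. Neither low/none (0.08 ± 0.31) nor high/low (0.32 ± 0.45) was larger than its spread.

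Part of the Itgam reads may be shared with Gm49368, a protein-coding model that overlaps it on the same strand. Gm49368 had 52.2 reads per 100 of Itgam, and 598 of the 599 cells with a read of it also had a read of Itgam. High/none log2 ratios of Gm49368 were 1.11, 0.37 and 0.50 (0.66 ± 0.40), positive like those of Itgam. How reads in the shared exons were counted is not given in the sources used here.

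The promoter of Itgam is shown as that of the member with the largest mean high/none ratio among those whose 3 TH numbers agreed in sign. None of the motifs above was found in its RefSeq window of 250 bases before and 50 after the start, which says only that these letters are absent there. The stretch before the start is chr7:128062390-128062639 (GRCm38.p6, plus strand, 5′ to 3′), printed without capitals because no motif was found.
Itgam: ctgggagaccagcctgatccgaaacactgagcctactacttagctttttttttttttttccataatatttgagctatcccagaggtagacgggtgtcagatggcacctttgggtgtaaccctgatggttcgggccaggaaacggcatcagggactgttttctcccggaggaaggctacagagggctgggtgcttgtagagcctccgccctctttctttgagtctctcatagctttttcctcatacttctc

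Summed over both chains, the receptor stood at 918, 941 and 909 CPM for plasma none and 1198, 1251 and 1191 CPM for plasma high. The sums of these groups did not overlap, with high/none log2 ratios of 0.38, 0.41 and 0.39 (0.39 ± 0.01). Over TH numbers 1 to 3 the ratios of Itgam fell (0.56 to 0.28) and those of Itgb2 rose (0.24 to 0.50). Each had an SD of 0.14, so the small SD of the sum came from opposite orders. This sum was not among the planned results, and no background over all genes was computed for it. Plasma low was between plasma none and plasma high at 926, 1118 and 1117 CPM, with TH number 1 at the level of plasma none.

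Cells with reads of both chains at equal depth were more frequent in plasma high than in plasma none. With every cell at 50000 reads, Itgam and Itgb2 were found together in 47.4%, 37.2% and 49.6% of cells in TH numbers 1, 2 and 3 of plasma none. The shares were 64.4%, 47.9% and 55.2% in plasma low and 61.4%, 54.2% and 63.4% in plasma high. All shares of plasma high were above those of plasma none, while plasma low overlapped both. Itgb2, with or without Itgam, was found in 60.98% of plasma none cells (exact binomial 95% interval 55.6% to 66.2%), 70.1% of plasma low cells and 72.8% of plasma high cells (67.2% to 77.8%). Before thinning, these shares were 64.2%, 72.4% and 74.8%. For Itgam the thinned shares were 71.4% (66.3% to 76.1%), 74.6% (69.8% to 79.1%) and 77.2% (71.98% to 81.9%), with intervals that overlap.

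Detection was also more frequent in plasma high for most other genes. At equal depth 76.7% of the 5534 genes of a mean of 20 CPM or more and detection in 10% or more of the cells of either group were found in a larger share of plasma high than of plasma none cells, with a median difference of 2.56 percentage points. The difference was 11.8 points for Itgb2 and 5.85 points for Itgam. Shares of the 3 TH numbers did not overlap for 1 of 8 members (Itgb2), beside 17.4% of all genes. Of these members C1qa, C1qb and C1qc were at 100% in every set, so their shares could not differ. From cell to cell, Itgb2 had an r of 0.226 with the log2 number of detected genes and 0.092 with the log2 reads over 987 cells.

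Other chains that pair with Itgb2 were low or absent. Itgal, the alpha chain of LFA-1, was at 0 in all 9 sums. Itgax, the alpha chain of complement receptor 4, averaged 3.46 CPM for plasma none, 3.11 CPM for plasma low and 7.003 CPM for plasma high. Itgad had no read in plasma none, and averaged 2.54 CPM for plasma low and 0.0308 CPM for plasma high. Itgb1, the beta chain of another integrin family, gave 136.6, 195.4 and 291.9 CPM for plasma none and 230.3, 309.02 and 289.5 CPM for plasma high. Its high/none log2 ratio of 0.47 ± 0.42 came from TH numbers 1 and 2 and was -0.01 in TH number 3.

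C3ar1, the receptor for the fragment C3a, did not separate the groups. The gene (ENSMUSG00000040552) lies on chromosome 6 from 122847138 to 122856161, minus strand. Plasma none gave 433, 412 and 430 CPM, plasma low 323.2, 450 and 445 CPM and plasma high 340.7, 475 and 401 CPM. Plasma none was the tightest group and lay inside the range of each of the others. Log2 ratios were -0.08 ± 0.28 (high/none), -0.08 ± 0.30 (low/none) and 0.00 ± 0.13 (high/low).

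C5ar1, the main receptor for the fragment C5a, varied widely between TH numbers. The gene (ENSMUSG00000049130) lies on chromosome 7 from 16246743 to 16259540, minus strand. Plasma none gave 298.3, 172.5 and 217.6 CPM, plasma low 193.8, 419 and 175.3 CPM and plasma high 262.5, 438 and 206.3 CPM. In TH number 2 alone, both plasma-positive groups were far above plasma none. High/none was -0.18, 1.34 and -0.08 on the log2 scale (0.36 ± 0.85), and -0.13 without TH number 2. For low/none the log2 ratio was 0.11 ± 1.02, and -0.46 without TH number 2. The high/low ratio was above 0 in every TH number (0.44, 0.07 and 0.23, mean 0.25 ± 0.19), a call that was lost with equal weight per cell, with thinned cells and with the top cell left out of each sum.

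C5ar2, the other C5a receptor, which does not couple to G proteins, was lower in plasma low than in plasma none. The gene (ENSMUSG00000074361) neighbours C5ar1 on chromosome 7, from 16234585 to 16244154, minus strand. Plasma none gave 697, 811 and 649 CPM (719 ± 83.1), plasma low 554, 555 and 501 CPM (536 ± 31.2) and plasma high 387, 589 and 703 CPM (560 ± 160). All sums of plasma low were below those of plasma none, whereas plasma high spread across both. Its low/none log2 ratio was -0.33, -0.55 and -0.37 (-0.42 ± 0.11, 0.749-fold). High/none spread from -0.85 over -0.46 to 0.11 (-0.40 ± 0.48), and high/low was 0.02 ± 0.51. Reads of C5ar2 were in 59.5% (plasma none), 59.8% (plasma low) and 59.7% (plasma high) of the cells. Where it was detected, its median level was 886 CPM for plasma none, 655 CPM for plasma low and 685 CPM for plasma high.

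**Figure D5:**
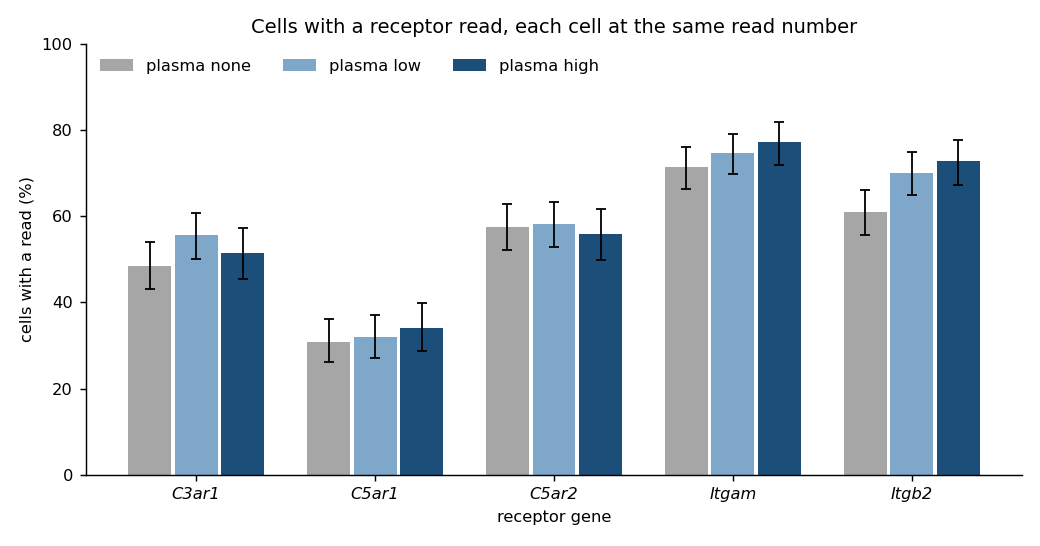
Percent of cells with a read of each receptor or integrin gene, with every cell thinned to the same number of reads; bars are the 3 plasma groups and whiskers exact binomial intervals that cover counting error only. Itgb2 goes from 60.98% in plasma none to 72.8% in plasma high, and the intervals of the 3 groups overlap for C3ar1, C5ar1, C5ar2 and Itgam.

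C3ar1 and C5ar1 were found in fewer cells than the integrin chains. This held for C5ar2 only with the TH numbers pooled. In TH number 2 of plasma none C5ar2 had reads in 68.1% of cells and Itgb2 in 56.6%. In the order none, low, high, C3ar1 had reads in 52.9%, 58.97% and 56.9% of cells and C5ar1 in 32.4%, 34.8% and 36.9%. At equal depth the shares were 48.6%, 55.6% and 51.4% for C3ar1 and 30.9%, 31.9% and 34.1% for C5ar1. These intervals overlap between groups for both genes. In TH number 2 the thinned share of C5ar1 was 20.4% for plasma none, 38.5% for plasma low and 36.5% for plasma high. No cell type that should lack these genes was sorted, so a background share of cells was not measured.

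Read against all genes, the number of members that differed was near the background for high/none and low/none. For high/low it was above the background, on 8 members and with no test. A level filter (a mean of 20 CPM or more, and detection in 10% or more of the cells of either group compared) was passed by 8 of 9 members, C3 being the other. A gene was then called where its log2 ratios agreed in sign over the 3 TH numbers and their mean was larger than their SD. For high/none, 3 of 8 members were called (C1qb, Itgam and Itgb2, all higher), beside 27.8% of 5534 genes, and 40.6% of the 806 genes of at least 200 CPM. For low/none, 2 of 8 were called (Itgb2 higher, C5ar2 lower), beside 24.3% of 5489 genes and 27.9% of those of at least 200 CPM. For high/low, 4 of 8 were called (C1qc, C5ar1 and Itgb2 higher, C1qa lower), beside 22.9% of 5709 genes and 26.7% of those of at least 200 CPM.

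Groups whose 3 sums did not overlap were also counted. In high/none, 2 of 8 members were higher without overlap (Itgam and Itgb2), beside 8.51% of genes, and 0 of 8 were lower, beside 5.42%. In low/none, 1 member was higher without overlap (Itgb2), beside 5.34%, and 1 was lower (C5ar2), beside 4.21%. In high/low, 1 was higher (Itgb2), beside 5.20%, and 0 were lower, beside 4.47%. No member reached a 1.5-fold difference with 3 TH numbers of 1 sign, a size met by 16.3% (high/none), 10.2% (low/none) and 11.1% (high/low) of genes.

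The median log2 ratio of the 8 members was 0.19 for high/none, beside 0.05 over all genes, and -0.02 without TH number 2. It was 0.04 beside 0.05 for low/none, and 0.11 beside 0.01 for high/low. The comparisons share groups and are not independent of each other. Under 10 alternatives of scaling, cell filter, cell weight, depth and pseudocount, C1qb, Itgam and Itgb2 were called for high/none in 10 of 10. Calls were also gained for high/none: C1qa (0.05) and C1qc (0.16), both higher, with equal weight per cell, and C1qc with thinned cells. Itgb2 and C5ar2 were likewise called for low/none in 10 of 10. C1qb was added there, higher, with equal weight per cell and with thinned cells. For high/low, C1qc was called in 10 of 10, C1qa in 8, C5ar1 in 7 and Itgb2 in 6, while C1qb was added in 5 and Itgam in 1, both higher.

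Most other complement genes were not measured at a usable level in these cells. Of 44 listed genes, 5 passed the level filter. Among them were the regulator Cr1l, and Calr, Lrp1 and C1qbp, which encode proteins reported to bind C1q or its ligands. None passed among the 15 genes of the classical and lectin start, the 3 of the alternative pathway and the 7 of the terminal pathway. Calr and Lrp1 were called higher for high/none, and Cr1l and C1qbp for low/none. For high/low, Cr1l was called lower. The shares of all genes called are those given above.

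Cr1l, also called Crry, a membrane inhibitor of C3 cleavage in the mouse, was highest in plasma low. Plasma none gave 132.95, 93.7 and 111.4 CPM, plasma low 161.02, 150.3 and 159.4 CPM and plasma high 119.99, 94.99 and 124.04 CPM. Plasma low did not overlap either of the others. Its log2 ratios were 0.49 ± 0.20 for low/none, -0.48 ± 0.16 for high/low and 0.01 ± 0.15 for high/none. Lrp1, an endocytic receptor, had a high/none log2 ratio of 0.23 ± 0.05 and Calr, calreticulin, of 0.14 ± 0.09, with sums that overlapped in both cases.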

How the data were processed

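Smart-seq2 libraries of single brain microglia were analysed. The authors deposited 1 read count per gene and cell in a table for each TH number. In 1 column of TH number 3 the deposited values have the unit expected count, since 2 of them were not whole. Per the submitters' processing notes, bcl2fastq, Trim Galore, STAR 2.5.3a and Seurat were used with mm10. Per the file headers, the columns of TH numbers 2 and 3 came from alignments reduced to top hits, and those of TH number 1 carry no such note. How reads were counted, and whether strand was used, is not given in the sources used here. The members, gene lists and rules were chosen with earlier results of these data known. The genes named were all 9 members, the genes of the complement list with a mean of at least 20 CPM, the integrin partners, and, from the 5 genes most and 3 least like C1q across cells, those reported; results for some genes are not reported here. Cells were matched to columns by well and TH number, and 0 columns were left unmatched. The cells used were 346 (plasma none), 351 (plasma low) and 290 (plasma high), and their reads were summed per group and TH number and scaled with TMM factors (edgeR 4.0.16, R 4.3.3). Log2 ratios used a pseudocount of 1 CPM, which understates the differences of low genes. The sequences are RefSeq promoters, found for 7 of 9 members. The ratios and the call rule were tried on simulated sums with known changes, and the outcome is not reported here. Alternatives were size factors from DESeq2 1.42.0, no TMM factor, other pseudocounts, cell filters and weights, thinned cells, and leaving out each TH number. Doublets were not called, since each well received 1 sorted cell, and cells were not clustered.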

Additional observations from a re-analysis of the deposited data

How the results depend on the processing

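Of 405 log2 ratios of single members recomputed under an alternative, 401 moved by less than their spread over TH numbers, 2 called values changed sign and 2 moved by more. For each TH number left out, 27 of these could not move by more than that spread, so they are no check. C3, for which no ratio is given above and whose spread was wide, is also counted. C1qa in plasma high against plasma low went from -0.06 to 0.02 with equal weight per cell, to 0.02 with thinned cells and to -0.10 with no TMM factor. Itgam in plasma high against plasma none was 0.25 with thinned cells. The cause was not tested.

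Leaving out each TH number in turn, the median of the members in plasma high against plasma none ranged from -0.02 to 0.24, and summed C1q from 0.10 to 0.22. In plasma low against plasma none these ranged from -0.07 to 0.17 and from -0.01 to 0.16, and in plasma high against plasma low from 0.08 to 0.14 and from 0.04 to 0.11. The TH numbers are not known to pair the cells, and with no replicate block summed C1q was 0.14, 0.07 and 0.07 in the 3 comparisons. With no filter on low values, 3211, 2916 and 2857 genes were called in place of 1536, 1335 and 1310.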
